A study of Mus musculus with 4 samples.

Results

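Tnfrsf11b, Tnfsf11, Csf1 and Il34 are 4 of the 32286 features counted in single tdTomato-positive cells of the mouse spine. They were chosen by name, as the genes for the secreted or membrane-bound signals by which skeletal cells control osteoclasts. No rule on their measured values was used, but earlier results of these data were known when they were chosen. Tnfrsf11b (ENSMUSG00000063727, GRCm38 chromosome 15, 54250619 to 54278484, minus strand) encodes osteoprotegerin, and Tnfsf11 (ENSMUSG00000022015, chromosome 14, 78277445 to 78308043, minus strand) encodes RANKL. Csf1 (ENSMUSG00000014599, chromosome 3, 107741048 to 107760469, minus strand) and Il34 (ENSMUSG00000031750, chromosome 8, 110741829 to 110805924, minus strand) encode the ligands of the macrophage receptor CSF1R.

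Osteoclasts are bone-resorbing cells of the monocyte lineage, and their precursors need signals from neighbouring skeletal cells. RANKL on the surface of osteoblasts, osteocytes, stromal cells and hypertrophic chondrocytes binds RANK (Tnfrsf11a) on the precursor and starts its differentiation, and osteoprotegerin is a soluble decoy that binds RANKL and keeps it from RANK. CSF1 keeps the precursors alive and dividing through CSF1R, and IL-34 binds the same receptor.

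The study traced cells of the Prss56 lineage with a tdTomato reporter and compared spines with and without Nf1, which encodes the RAS inhibitor neurofibromin, in that lineage. All mice carried Prss56 Cre and R26 tdTom/tdTom. Control mice were Prss56 Cre/+ and Nf1 +/+, with 1 Cre allele, and mutant mice were Prss56 Cre/Cre and Nf1 fl/fl, with 2 Cre alleles, so the number of Cre alleles and the Nf1 genotype cannot be told apart. Recombination took place where Prss56 had been active, in boundary cap cells and their descendants. Cells from lower thoracic and upper lumbar vertebrae were sorted for tdTomato after CD45, CD11b and CD31 positive cells and dead cells had been gated out. There were 4 libraries, 1 per condition, from mice of 3 months and of 12 to 16 months, and no comparison between conditions has a replicate check. Below, where 4 values follow each other, the control comes before the mutant of its age, and the libraries of 3 months come before those of 12–16 months. Intervals are exact 95% intervals that cover counting error only: they treat UMIs (unique molecular identifiers, 1 per captured transcript) as independent, although UMIs of 1 gene cluster in single cells.

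The libraries held 922, 542, 163 and 545 cell barcodes, of which 717, 484, 135 and 421 passed a filter on depth (over 750 UMIs and over 500 genes) and on mitochondrial UMIs (under 7%). These 1757 cells held 9429264, 7287981, 2154537 and 4398951 UMIs, the median cell had 11467, 12644, 11702 and 8189, and no barcode was shared between libraries. Nf1 stood at 131, 150, 147 and 125 CPM (UMIs of the gene per 1000000 UMIs). The 3′ end that is counted does not check a deletion further upstream, and the libraries are called by their labels. UMIs of 4 Y-linked genes numbered 210, 5, 122 and 216, with almost none in the 3-month mutant library. The summed level of 13 genes that rise during tissue dissociation was 23214, 13131, 12470 and 10762 CPM. The part of sex and dissociation in the values below was not tested.

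Cells were placed in classes by 8 other genes. Endplate cells had at least 1 Sox9 UMI and at least 3 UMIs of Zfp804b and Dab1, and numbered 30, 142, 12 and 38. Other cartilage cells had Sox9 and at least 3 UMIs of Acan (aggrecan), and numbered 532, 235, 78 and 220. Bone cells had at most 2 Acan UMIs and at least 3 of Slit2, Tnc and Postn, and numbered 38, 17, 22 and 63. A stroma class of cells with at least 10 Cxcl12 UMIs was left with 2 cells, because 87 of the 89 cells that met it met the bone rule first. The summed chondrocyte markers ranged from 15418 to 21773 CPM in endplate and from 9965 to 13231 CPM in other cartilage, against 1124 to 3189 CPM in bone. Summed osteoblast markers ranged from 37684 to 165743 CPM in bone, and stroma markers, Lepr and Adipoq among them, were at 1978 to 4509 CPM there, so the bone class held both kinds of cell. It was therefore also split, after the class counts had been seen, into cells with at least 10 Cxcl12 UMIs (17, 12, 10 and 47 cells), cells below that with at least 20 UMIs of the osteocalcin genes Bglap and Bglap2 (11, 1, 9 and 5 cells), and the rest. Cxcl12 is a chemokine of marrow stroma and osteocalcin a product of mature osteoblasts.

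Most UMIs of the decoy receptor were in cartilage and most of Csf1 in bone, while Tnfsf11 and Il34 were found in both. Of 5304 Tnfrsf11b UMIs, 1856 were in endplate cells and 3261 in other cartilage, and 36 were in bone. Bone cells, 140 of the 1757, held 145 of 327 Tnfsf11 UMIs, 833 of 1078 Csf1 UMIs and 194 of 385 Il34 UMIs. Endplate and other cartilage held 100 and 79 of the Tnfsf11 UMIs and 37 and 52 of the Il34 UMIs. At least 1 UMI was seen in 798 cells (45.4%) for Tnfrsf11b, in 273 (15.5%) for Csf1, in 155 (8.82%) for Il34 and in 132 (7.51%) for Tnfsf11. A further 98 of the Il34 UMIs were in cells outside the classes that carried at least 5 UMIs of the mural genes Acta2, Myh11 and Rgs5.

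**Figure D1:**
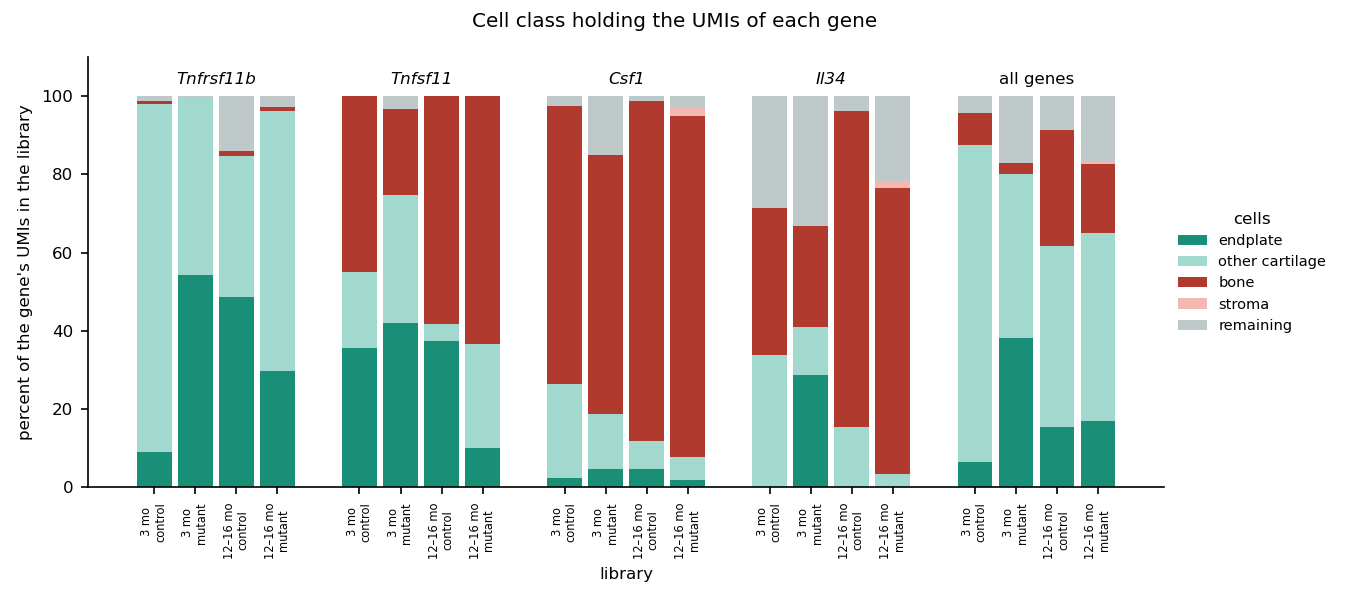
Percent of the UMIs of each gene, and of all genes, found in each cell class (vertical axis), for each library (horizontal axis). Cartilage held most Tnfrsf11b in each library, while bone held 71.2%, 66.3%, 86.8% and 87.1% of Csf1.

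Against other cartilage of the same library, the 3 ligands were higher in bone and the decoy was lower. A gene was counted as past 2-fold when its CPM ratio was at least 2 or at most 0.5, its counting interval excluded 1 and it had at least 20 UMIs over both sides. By this rule 3, 3, 2 and 3 of the 4 genes were higher in bone, where 14.0%, 15.1%, 14.0% and 20.3% of all genes were. Tnfrsf11b was lower in bone in each library, where 15.1%, 8.73%, 19.6% and 12.8% of all genes were. In the 12–16-month control library Tnfsf11 had 14 UMIs in bone and 1 in other cartilage, too few for the rule. So 3 or 4 of the 4 genes were past the threshold in each library.

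**Figure D2:**
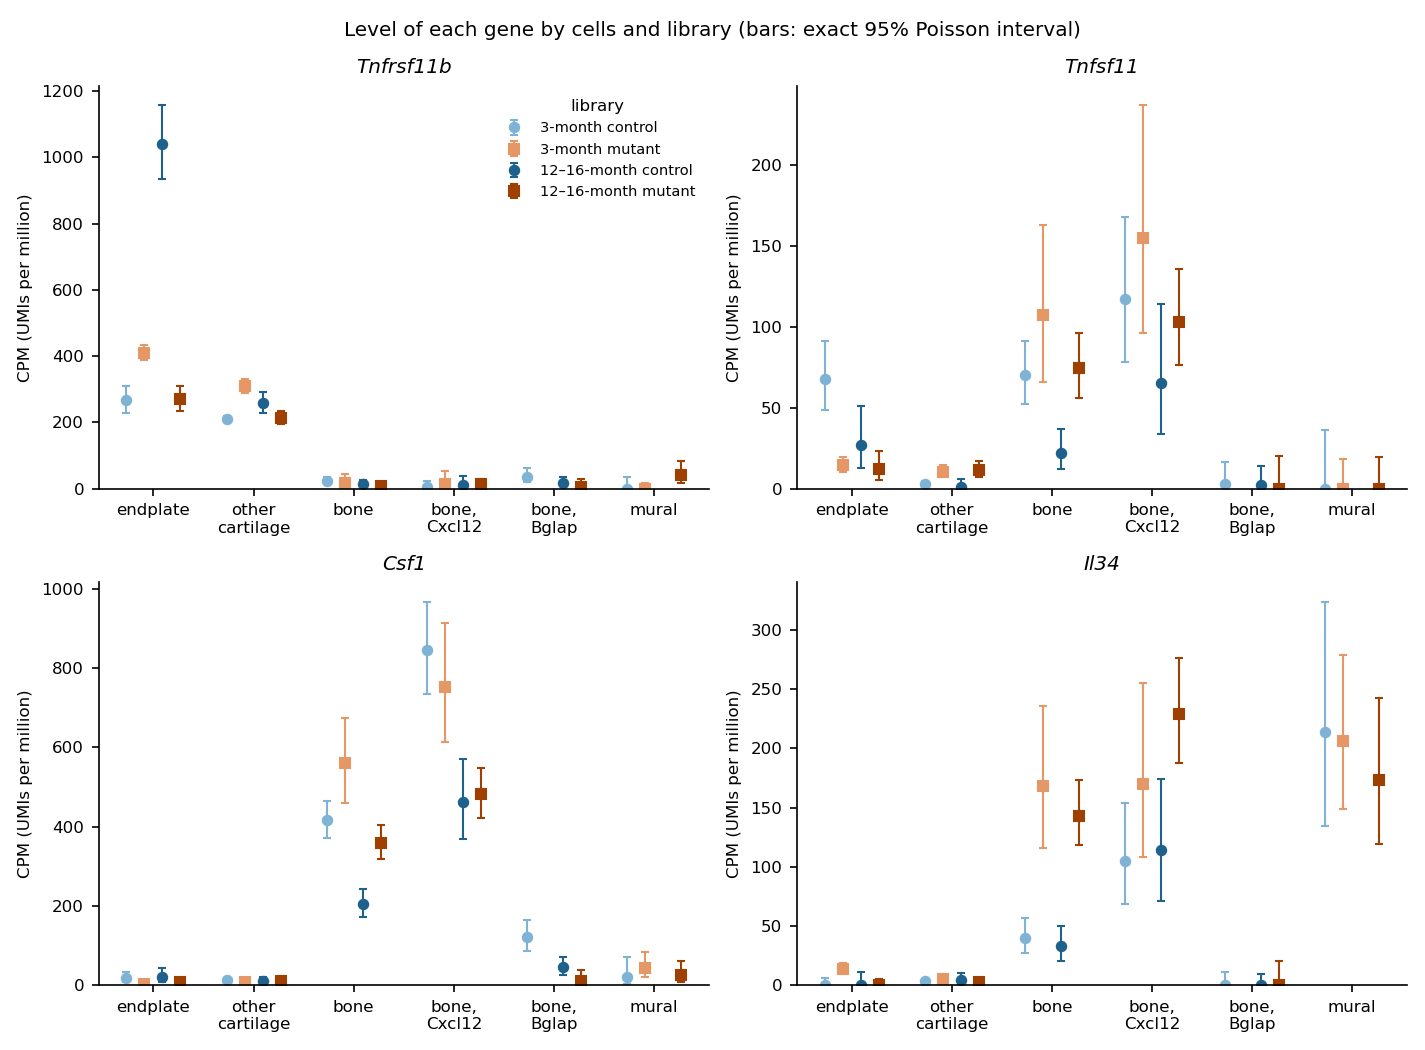
Level of each gene in CPM (vertical axis, from 0, a scale of its own in each panel) by cells (horizontal axis) and library, with exact 95% Poisson intervals; groups under 5 cells are left out. Tnfrsf11b is highest in the 12–16-month control endplate at 1042 CPM, and Csf1 in the Cxcl12-positive bone cells of the 3-month control at 845 CPM.

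Tnfrsf11b, the decoy receptor, was detected mainly in cartilage. In endplate cells its level was 266 (227–310), 410 (387–435), 1042 (936–1158) and 270 (234–310) CPM. The 12–16-month control endplate stood apart from the other 3, the 3-month mutant came next, and the intervals of the remaining pair overlapped. In other cartilage the level was 210 (200–220), 310 (290–330), 259 (228–292) and 214 (194–234) CPM. Here the 3-month mutant was highest, its interval just overlapping that of the 12–16-month control, and the 3-month control and 12–16-month mutant overlapped at the low end. In bone cells it was 22.4 (13.1–35.9), 15.3 (3.15–44.6), 14.0 (6.42–26.7) and 9.11 (3.66–18.8) CPM, with all 4 intervals overlapping and lying below every interval of cartilage.

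The difference between endplate and other cartilage was small in 3 of the 4 libraries. The ratio of Tnfrsf11b in endplate to other cartilage was 1.27 (1.07–1.49), 1.33 (1.21–1.45), 4.03 (3.42–4.76) and 1.26 (1.07–1.50). Only the 12–16-month control library passed 2-fold. In this comparison 1, 2, 1 and 0 of the 4 genes were past 2-fold, where 20.8%, 22.0%, 25.2% and 20.3% of all genes were. The other calls were Tnfsf11 in the 3-month control, where 1 cell held 36 of the 42 UMIs, and, in the 3-month mutant, Il34 (higher) and Csf1 (lower).

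Among endplate cells, those with at least 3 UMIs of the hypertrophic genes Col10a1, Prkg2 and Ihh (14, 90, 10 and 31 cells) had more Tnfrsf11b. The level was 355 (298–419), 446 (418–476), 1164 (1043–1296) and 278 (239–321) CPM in these cells and 114 (74.4–167), 309 (270–352), 282 (150–483) and 216 (132–333) CPM in the other endplate cells. The intervals were apart in the first 3 libraries and overlapped in the 12–16-month mutant. In the 3-month control, however, 2 of the 14 hypertrophic cells held 52 and 33 of the 139 UMIs. Whether the intervals stay apart there without these cells was not tested. The other endplate cells of the 12–16-month control numbered 2.

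In single endplate cells the 12–16-month control was also highest. At least 1 Tnfrsf11b UMI was found in 66.7% (47.2–82.7%, Clopper-Pearson), 74.6% (66.7–81.6%), 91.7% (61.5–99.8%) and 76.3% (59.8–88.6%) of endplate cells. After each cell was thinned to 3000 UMIs, with shallower cells left out, the shares were 32.7%, 44.4%, 77.3% and 37.7%. The median cell had 1.27, 1.61, 7.36 and 0.978 Tnfrsf11b UMIs per 10000 UMIs, and the highest cell 11.7, 37.2, 26.5 and 10.9. The 12–16-month control value thus came from most of its 12 cells, of which 11 had the gene, and 3-month mutant cells reached as high.

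**Figure D3:**
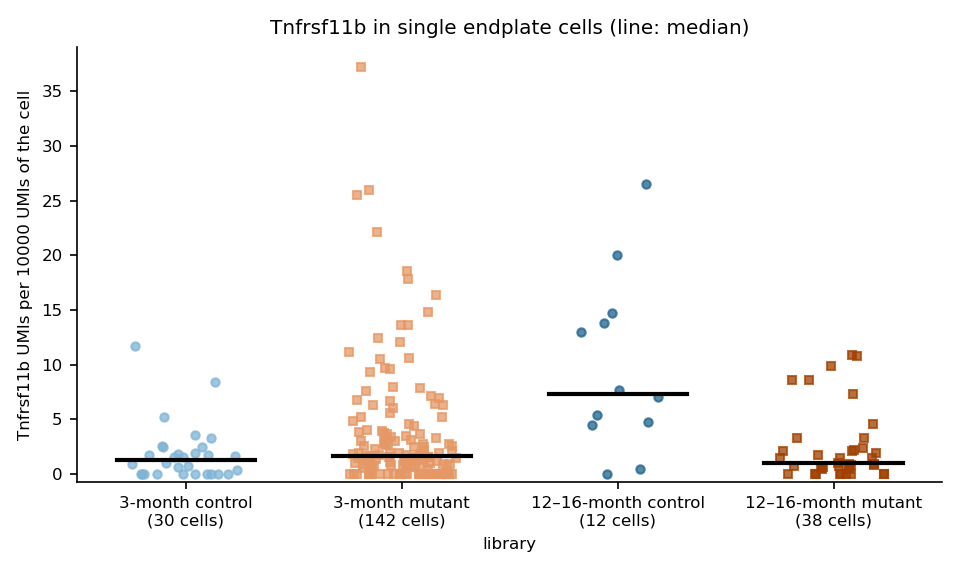
Tnfrsf11b UMIs per 10000 UMIs of the cell (vertical axis) in each endplate cell, by library (horizontal axis); points are cells and the line is the median. The median of the 12 cells of the 12–16-month control is 7.36, against 0.978 to 1.61 in the other libraries.

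Cells outside the classes with at least 1 UMI of the hematopoietic genes Ptprc, Hba-a1 or Igkc were taken as a background. Cells that also had mural genes were not left out, and free RNA can bring a cell in by 1 UMI. Whether these cells lack the 4 genes, Tnfsf11 among them, was not tested. The hematopoietic cells among those outside the classes (25, 48, 7 and 34 cells with a median of 1123, 11864, 1282 and 7548 UMIs) held no Tnfrsf11b UMI, which allows a share of cells with a UMI of up to 12.0%, 6.25%, 42.9% and 8.82%. Tnfsf11 was seen there in 1 of 48 cells of the 3-month mutant and in no cell of the other libraries. The cell with most Tnfrsf11b UMIs of all, 95 of its 13354, belonged to the 12–16-month control library and to no class. It had 116 Acan and 96 Zfp804b UMIs and no Sox9 UMI, and it held most of the 13.9% of that library's Tnfrsf11b UMIs that lay outside the classes.

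Between mutant and control, Tnfrsf11b went in opposite directions at the 2 ages. At 3 months it was higher in the mutant library, by 1.54-fold (1.31–1.83) in endplate, 1.47-fold (1.36–1.60) in other cartilage and 1.51-fold (1.41–1.61) over all passing cells. At 12–16 months it was lower, at 0.259 times the control level (0.217–0.309) in endplate, 0.826 times (0.707–0.967) in other cartilage and 0.468 times (0.421–0.521) over all cells. The values at 12–16 months in endplate and over all cells were past 2-fold, and those at 3 months were not. In endplate at 3 months, however, the log2 ratio of 0.63 was 1.91 with classes set on cells thinned to 3000 UMIs, 1.27 with thinned cells and 1.02 with the same weight for each cell. In the hypertrophic endplate cells alone the ratios were 1.26 (1.05–1.51) and 0.239 (0.198–0.287). The endplate of the 12–16-month control had no Col10a1 UMI, so Prkg2 and Ihh alone set this subset there. The second ratio thus compares mutant cells, some of which may have entered through Col10a1, to control cells without it. How many of the mutant cells had Col10a1 is not given here. In other cartilage at 12–16 months the log2 ratio of −0.28 turned to 0.03 when each cell had the same weight and to 0.22 with thinned cells. It was −0.19 (−0.41 to 0.04) with TMM scaling, which sets libraries to a common level over most genes, and −0.08 (−0.33 to 0.18) without the top cell of each library, and both intervals included 0.

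In the control libraries the endplate level was higher with age and in the mutant libraries it was lower. The ratio of 12–16 to 3 months was 3.92 (3.25–4.75) in control endplate and 0.659 (0.564–0.766) in mutant endplate, and in other cartilage it was 1.23 (1.08–1.41) and 0.690 (0.616–0.773). Of the 4 genes, 2 were past 2-fold with age in control endplate (Tnfrsf11b higher, Tnfsf11 lower), where 13.7% of all genes were, and 1 in mutant endplate (Il34 lower), where 13.1% were. The Tnfsf11 ratio with age in control endplate, 0.399 (0.171–0.832), turned to 1.25 (0.260–5.28) without the top cell of each library. The hypertrophic markers Col10a1, Ihh, Prkg2 and Panx3 summed to 4079, 1508, 709 and 2158 CPM in endplate, lowest where Tnfrsf11b was highest, with Col10a1 at 0 in the 12–16-month control. Their part in the result was not tested.

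Tnfsf11, the ligand, was concentrated in bone cells. Their level was 69.9 (52.4–91.4), 107 (66.1–163), 21.8 (11.9–36.6) and 74.2 (56.2–96.1) CPM, from 53, 21, 14 and 57 UMIs. The 12–16-month control was lowest and its interval lay below the other 3, which overlapped. At least 1 UMI was found in 47.4%, 35.3%, 27.3% and 41.3% of bone cells. Against other cartilage the level in bone was 23.2-fold (14.0–39.7), 10.6-fold (5.76–19.0), 21.7-fold (3.30–918) and 6.54-fold (3.99–11.0) higher.

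Within bone, Tnfsf11 was found in the Cxcl12-positive cells of each library and in the remaining bone cells of some, and hardly in the osteocalcin-rich cells. The level in Cxcl12-positive cells was 117 (78.5–168), 155 (95.9–237), 65.2 (33.7–114) and 103 (76.1–136) CPM, with all 4 intervals overlapping. In the osteocalcin-rich cells it was 2.94 (0.0745–16.4), 0 (0–159), 2.48 (0.0627–13.8) and 0 (0–19.9) CPM, from 2 UMIs in all. The remaining bone cells had 23, 0, 1 and 8 UMIs. In the 3-month control they held 19.5% of the Tnfsf11 UMIs with 1.81% of all UMIs. The Cxcl12-positive cells of that library held 24.6% with 2.62%, so Tnfsf11 was not confined to them. In the 12–16-month mutant the shares were 8.89% with 2.42% in the remaining bone cells and 54.4% with 10.8% in the Cxcl12-positive cells.

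The bone level of Tnfsf11 was higher in the mutant library at 12–16 months, but the makeup of the class moved with it. The ratio of mutant to control was 1.53 (0.876–2.58) at 3 months and 3.40 (1.87–6.60) at 12–16 months. The interval at 3 months included 1, and 1 mutant cell held 9 of the 21 UMIs there. Osteocalcin-rich cells gave 44.8%, 11.8%, 63.0% and 24.1% of bone UMIs and Cxcl12-positive cells 32.6%, 69.0%, 28.7% and 62.1%, so both controls had the larger osteocalcin-rich part. Within Cxcl12-positive cells the ratios were 1.32 (0.716–2.40) and 1.58 (0.827–3.26), and neither interval excluded 1. With cells thinned to 3000 UMIs the log2 ratio over all bone cells at 12–16 months went from 1.76 to 0.45, under 2-fold. The part of the makeup in the ratio over all bone cells was not tested. The median log2 ratio over all genes with enough UMIs was 0.22 and 0.36 in bone, against −0.05 to 0.00 in endplate and other cartilage.

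In the endplate, Tnfsf11 rested on few cells. The level was 67.7 (48.8–91.5), 14.4 (10.3–19.6), 27.0 (12.4–51.3) and 12.0 (5.51–22.9) CPM, from 42, 40, 9 and 9 UMIs in 6 of 30, 24 of 142, 5 of 12 and 8 of 38 cells. In the 3-month control, the highest of the 4, 1 cell of 64895 UMIs held 36 of the 42, and without it the level was 10.8 (3.97–23.5) CPM. The mutant-to-control ratio at 3 months was 0.212 (0.134–0.335), and without the top cell of each library its log2 value turned from −2.24 to 0.19. Of the 100 endplate UMIs, 42, 37, 7 and 8 by library were in the hypertrophic cells, which made up 14 of 30, 90 of 142, 10 of 12 and 31 of 38 endplate cells.

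Other cartilage had little Tnfsf11. The level was 3.01 (1.91–4.52), 10.1 (6.88–14.4), 1.01 (0.0255–5.61) and 11.3 (7.27–16.9) CPM, from 23, 31, 1 and 24 UMIs in 11, 14, 1 and 6 cells. Both mutant libraries were above their controls, with ratios of 3.36 (1.90–6.04) and 11.3 (1.84–464). The 4 hypertrophic markers were also higher in both, with sums of 430, 1117, 201 and 1607 CPM in other cartilage. The part of this makeup in the ratios was not tested. The shares of cells with a UMI, 2.07%, 5.96%, 1.28% and 2.73%, could not be told apart from the 1 of 48 hematopoietic cells (2.08%, 0.0527–11.1%). At 12–16 months the direction turned when classes were set on cells thinned to 3000 UMIs, to a log2 ratio of −0.19.

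Csf1, the survival factor, was the most widely detected of the ligands in bone. Its level in bone cells was 417 (372–465), 560 (460–675), 204 (171–243) and 359 (318–404) CPM, and 81.6%, 88.2%, 81.8% and 87.3% of bone cells had at least 1 UMI, against 0%, 6.25%, 14.3% and 5.88% of the hematopoietic cells. The 12–16-month control was lowest, and each mutant library was above the control of its age, with intervals that just overlapped at 3 months. In endplate the level was 17.7, 2.87, 21.0 and 8.03 CPM and in other cartilage 13.9, 7.51, 11.1 and 8.98 CPM. Bone was thus 30.0-fold (24.0–37.8), 74.5-fold (47.2–122), 18.5-fold (9.99–37.9) and 40.0-fold (25.1–67.5) above other cartilage.

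Csf1 was lowest in the osteocalcin-rich bone cells and high in the Cxcl12-positive cells. Their level was 845 (734–968), 752 (613–913), 462 (369–571) and 483 (422–549) CPM, and Csf1 was found in 17 of 17, 11 of 12, 10 of 10 and 46 of 47 of them. In this subset the libraries paired by age: both 3-month libraries were above both 12–16-month libraries, with no overlap of intervals between the ages. However, 1 cell held 65 of the 209 UMIs in the 3-month control, and 1 cell held 43 of the 102 in the 3-month mutant. Whether the ages stay apart without these cells was not tested. In the osteocalcin-rich cells the level was 121, 0, 44.6 and 10.8 CPM, and in the remaining bone cells 386, 212, 531 and 413 CPM. In the 12–16-month control the value of the remaining bone cells rested on 28 UMIs in 3 cells, too few to set it above the Cxcl12-positive cells.

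Between mutant and control, the bone level of Csf1 was 1.34-fold (1.07–1.67) higher at 3 months and 1.76-fold (1.42–2.18) higher at 12–16 months. Within Cxcl12-positive cells the ratios were 0.890 (0.696–1.13) and 1.05 (0.812–1.36), and both intervals included 1. The direction at 3 months turned over all bone cells too when each cell had the same weight or was thinned, to a log2 ratio of −0.01 and −0.25 from 0.43. Over all passing cells Csf1 was lower in the 3-month mutant, at 0.484 times the control (0.402–0.579), where bone cells were 2.70% of UMIs against 8.04%. At 12–16 months the ratio over all cells was 1.03 (0.844–1.26). With age, Csf1 in Cxcl12-positive cells was 0.546 (0.419–0.706) times the 3-month level in control and 0.641 (0.506–0.818) times in mutant. Both 3-month levels include the single cells with 65 and 43 UMIs.

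Il34, the other CSF1R ligand, had its highest levels in Cxcl12-positive bone cells and in mural cells. Cartilage held many of its UMIs at 3 months, 27 of 80 in other cartilage of the control and 37 of 129 in endplate of the mutant. In bone its level was 39.6 (26.7–56.5), 168 (116–236), 32.8 (20.3–50.1) and 143 (118–173) CPM, from 30, 33, 21 and 110 UMIs. Both mutant libraries were above both controls, with no overlap. In Cxcl12-positive cells it was 105 (68.7–154), 170 (108–255), 114 (70.6–174) and 229 (188–276) CPM, where only the 12–16-month mutant lay above both controls. The osteocalcin-rich cells had no Il34 UMI in any library, and their floors of 3 counts were 8.83, 129, 7.43 and 16.2 CPM.

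Il34 was the only gene of the 4 past 2-fold between mutant and control in bone at both ages. The ratio was 4.24 (2.51–7.20) at 3 months and 4.37 (2.72–7.34) at 12–16 months, and within Cxcl12-positive cells 1.61 (0.880–2.94) and 2.01 (1.25–3.37), so the call at 3 months was lost there. With cells thinned to 3000 UMIs the 3-month log2 ratio fell from 2.09 to 0.92, also under 2-fold. Mural markers summed to 587, 2412, 15.6 and 5.21 CPM in bone, highest in the 3-month mutant. Bone cells with at least 5 UMIs of the 4 mural markers numbered 1, 2, 1 and 0 and held 4, 9, 3 and 0 Il34 UMIs, and without them the level was 34.8, 138, 29.1 and 143 CPM. Both mutant libraries were above both controls without these cells as well, and the order of the 2 mutant libraries turned. In the 12–16-month control, 1 further cell with hematopoietic markers held 6 of the 21 Il34 UMIs and 18 of the 131 Csf1 UMIs of bone. All 21 Il34 UMIs lay in 3 Cxcl12-positive cells, and the cell with neither set of markers held 12 of them. The control side of both 12–16-month ratios thus rested on 3 cells.

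Mural cells outside the classes, 9, 17, 2 and 24 in number, had Il34 at 214 (134–324), 206 (149–279), 30.4 (0.77–170) and 173 (119–243) CPM. The mutant-to-control ratio there was 0.963 (0.562–1.69) at 3 months, and the 12–16-month control gave 1 UMI. Tnfsf11 was at 0 in these cells in all 4 libraries, and Csf1 was at 19.5, 44.2, 0 and 26.2 CPM.

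In endplate, Il34 was seen in 1 library. The 3-month mutant had 37 UMIs in 19 of 142 cells (13.3 CPM, 9.36–18.3), and the other libraries had none, with floors of 4.84, 9.01 and 4.01 CPM. Hematopoietic cells of the 3-month mutant had a median of 11864 UMIs, against 17606 in its endplate cells. They had 8 Il34 UMIs, all in 1 of 48 cells (8.87 CPM, 3.83–17.5). Of the 43 Il34 UMIs outside the classes in this library, 42 were in the mural cells. The 1 hematopoietic cell with Il34 thus also met the mural rule, so its level gives no background for endplate. The share of cells was 13.4% (8.25–20.1%) in endplate against 2.08% (0.0527–11.1%) of the hematopoietic cells, all from that 1 cell. The endplate level of the 3-month mutant was at least 2.75-fold above the floor of the 3-month control, and the level in the 12–16-month mutant was at least 3.31-fold lower. In other cartilage the level was 3.53, 5.23, 4.02 and 2.36 CPM with overlapping intervals.

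**Figure D4:**
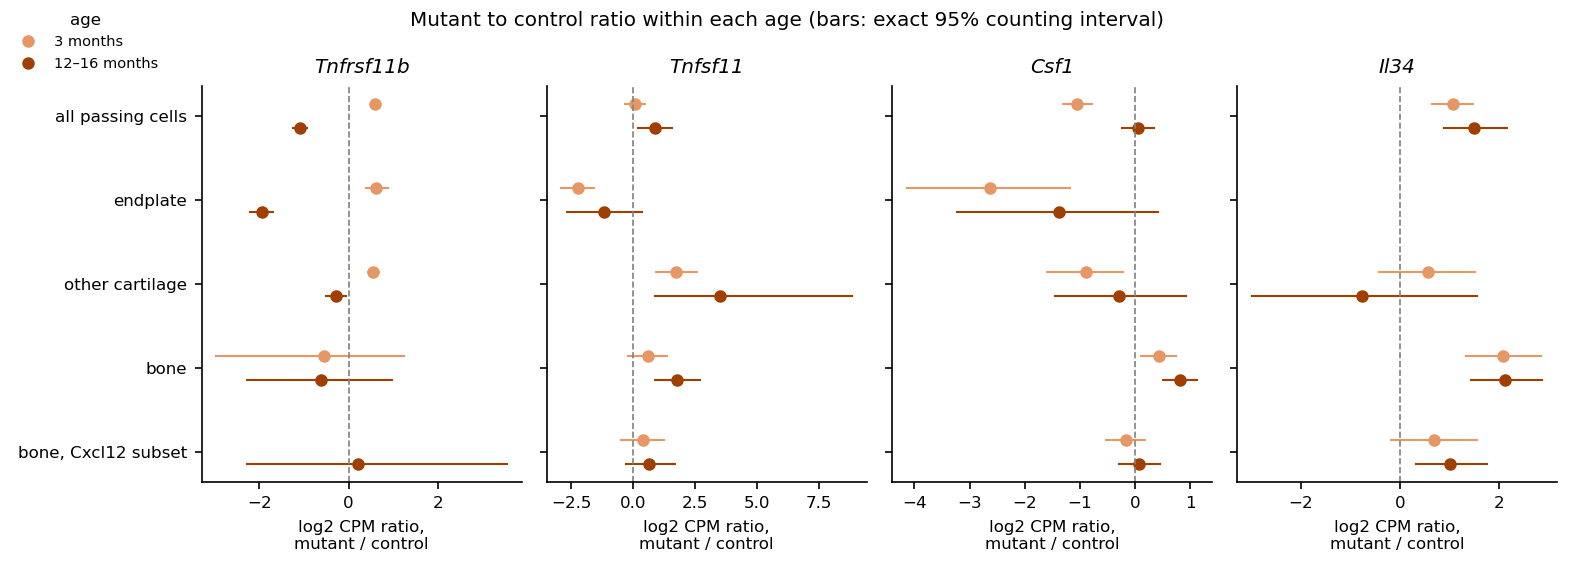
log2 ratio of CPM of mutant to control (horizontal axis, a scale of its own in each panel) by cells (vertical axis) at each age, with exact 95% counting intervals; ratios against a group at 0 are left out. Tnfrsf11b lies right of 0 at 3 months and left of 0 at 12–16 months in cartilage, and Il34 in bone is at 2.09 and 2.13.

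Counted over the 4 genes, 0 to 2 mutant-to-control differences were past 2-fold in each class and age, beside the shares of all genes. Over all passing cells there were 2 at each age (Il34 higher and Csf1 lower at 3 months, Il34 higher and Tnfrsf11b lower at 12–16 months), where 19.1% and 9.43% of all genes were past 2-fold. In endplate there were 2 at 3 months (Il34 higher, Tnfsf11 lower) and 1 at 12–16 months (Tnfrsf11b lower), against 11.6% and 9.73%, and the Tnfsf11 call turned direction without the top cells (log2 ratio 0.19) and with classes set on thinned cells (0.21). In other cartilage there was 1 at each age (Tnfsf11 higher), against 8.21% and 6.65%. In bone there was 1 at 3 months (Il34) and 2 at 12–16 months (Il34 and Tnfsf11, both higher), against 18.1% and 16.7%. In Cxcl12-positive bone cells there was none at 3 months and 1 at 12–16 months (Il34), against 13.6% and 8.96%.

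With age, Tnfsf11 and Csf1 were lower in bone of the control, at 0.312 (0.160–0.571) and 0.490 (0.397–0.603) times the 3-month level. These were 2 of 4 genes past 2-fold, where 10.2% of all genes were. Osteocalcin-rich cells were 44.8% of control bone UMIs at 3 months and 63.0% at 12–16 months. Within Cxcl12-positive cells the ratios were 0.556 (0.258–1.12) and 0.546 (0.419–0.706), and neither was past 2-fold. In these cells of the 3-month control, 1 cell held 65 of the 209 Csf1 UMIs. In mutant bone none of the 4 was past 2-fold, where 9.16% of all genes were, and the ratios were 0.695 (0.415–1.21) for Tnfsf11, 0.642 (0.513–0.808) for Csf1 and 0.853 (0.573–1.30) for Il34. Whether the change with age differed between control and mutant was not tested.

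The number of ligand UMIs relative to decoy UMIs was higher in bone than in cartilage in each library. Over all passing cells there were 6.53, 4.52, 3.37 and 13.2 Tnfsf11 UMIs per 100 Tnfrsf11b UMIs. The 12–16-month mutant was highest, and its interval lay above the other 3. Within bone, within endplate and within other cartilage its interval overlapped that of the 3-month mutant. Bone gave 8.04%, 2.70%, 29.7% and 17.5% of all UMIs, and the part of this makeup in the values over all cells was not tested. In bone there were 312, 700, 156 and 814 per 100, in endplate 25.5, 3.50, 2.59 and 4.46, and in other cartilage 1.43, 3.27, 0.389 and 5.31. The endplate value of the 3-month control fell from 25.5 to 3.90 (1.41–8.68) without the cell that held 36 Tnfsf11 and 11 Tnfrsf11b UMIs. Bone had more Tnfsf11 than Tnfrsf11b UMIs in all 4 libraries, although the interval of the 12–16-month control included equal counts, and cartilage had fewer in all 4. The osteocalcin-rich bone cells of the controls went the other way, with 1 Tnfsf11 to 12 Tnfrsf11b UMIs at 3 months and 1 to 7 at 12–16 months. Transcripts of different genes may be captured with different efficiency, so these values can be set side by side between cells but do not give the ratio of the proteins.

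**Figure D5:**
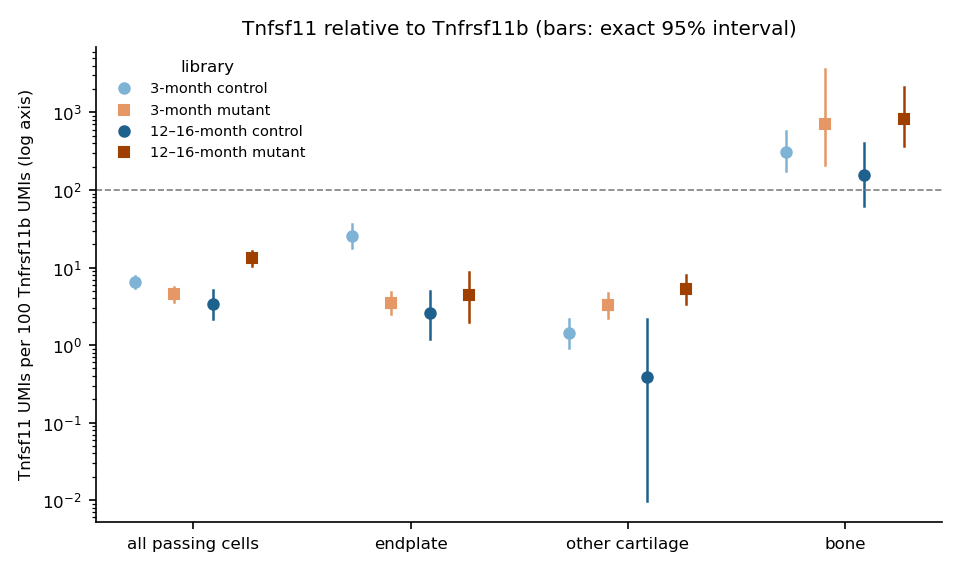
Tnfsf11 UMIs per 100 Tnfrsf11b UMIs (vertical axis, logarithmic) by cells (horizontal axis) and library, with exact 95% intervals; the dashed line marks equal counts. Bone lies above the line at 156 to 814, and endplate and other cartilage lie below it at 0.389 to 25.5, where the highest value rests on 1 cell.

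In bone cells Tnfsf11 and Il34 were mostly seen together with Csf1, which most bone cells had. Of 140 bone cells, 56 had a Tnfsf11 UMI and all 56 also had Csf1, which 119 cells had. Il34 was found in 47 bone cells, 46 of them with Csf1 and 16 with Tnfsf11. Tnfrsf11b was found in 21 bone cells, 9 of them with Tnfsf11. In endplate 36 of the 43 cells with Tnfsf11 also had Tnfrsf11b, near the 166 of 222 of all endplate cells that had it. Cells with more UMIs in all are likelier to show any pair of genes.

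The bases upstream of Tnfsf11 and Csf1, found together in bone cells, are shown with the promoter letters that were found in them. They are the 250 bases before the annotated start, from RefSeq on GRCm38.p6, at chr14:78308044-78308293 and chr3:107760470-107760719, both on the minus strand and written 5′ to 3′ along the gene, and entries for 2 of the 4 genes were matched.
Tnfsf11: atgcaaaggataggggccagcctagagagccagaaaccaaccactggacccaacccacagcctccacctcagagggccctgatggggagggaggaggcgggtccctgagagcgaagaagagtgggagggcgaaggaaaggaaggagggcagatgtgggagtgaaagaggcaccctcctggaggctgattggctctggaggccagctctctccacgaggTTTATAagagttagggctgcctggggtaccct
Csf1: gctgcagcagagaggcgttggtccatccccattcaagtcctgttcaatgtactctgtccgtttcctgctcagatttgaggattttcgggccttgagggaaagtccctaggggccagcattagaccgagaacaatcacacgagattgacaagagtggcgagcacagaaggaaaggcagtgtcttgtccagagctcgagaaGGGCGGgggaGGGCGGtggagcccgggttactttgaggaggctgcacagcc
The capitals mark motif matches. In Tnfsf11 they are TTTATA, which reads TATAAA (the TATA box) on the other strand, 32 bases before the start, and in Csf1 they are 2 copies of GGGCGG (the GC box) 51 and 41 bases before the start. Of 32851 upstream stretches of this length, 12.4% held TATAAA and 32.7% held GGGCGG on either strand. The Runx core TGTGGT, the AP-1 site TGANTCA and the cAMP response element TGACGTCA matched neither gene, and 14%, 6.75% and 1.55% of all stretches held them. The GC content was 60.4% and 56.4%, against a median of 52.4%. A match of letters is a description and not a bound site.

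Genes whose levels ran most like each of the 4 were taken over 17 groups of class and library, from 9921 genes with at least 200 UMIs, by Pearson's r of log2(CPM + 10). The groups share libraries, depth and class rules, and no p is given. Nearest to Tnfrsf11b were Myh14 (0.96), A330033J07Rik (0.95), AI646519 (0.95), Tceal3 (0.94) and Gm28153 (0.94), all highest in the 12–16-month control endplate. Nearest to Tnfsf11 were Wnt4 (0.95), Col25a1 (0.90), Fat4 (0.89), Slitrk6 (0.88) and Hs3st5 (0.87). Nearest to Csf1 were Podnl1 (0.98), Tmem176a (0.98), Fgf7 (0.97), Mmp23 (0.97) and Fbln5 (0.97), and nearest to Il34 were Tnfsf12 (0.96), Klhl24 (0.95), Zfp423 (0.95), Itga1 (0.94) and Ece1 (0.94). Among the 4, Csf1 and Il34 ran most alike (0.79) and Tnfrsf11b and Il34 most opposed (−0.88), while Tnfsf11 and Tnfrsf11b were near 0 (−0.12).

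The receptors of osteoclast precursors were nearly absent from the cartilage and bone classes, and cells outside the classes are not covered here. Tnfrsf11a, which encodes RANK, had at most 3 UMIs and Csf1r at most 4 in any class and library of cartilage and bone. Of the other receptors, Ptprz1, a surface phosphatase that binds IL-34, was at 319, 590, 443 and 172 CPM in bone, while other cartilage gave 1.31, 0.327, 2.01 and 0.946 CPM. Sdc1, the syndecan that also binds IL-34, was at 55.4, 168, 31.2 and 75.5 CPM in bone. Lgr4, another receptor for RANKL, was at 80.5, 86.5, 88.9 and 92.4 CPM in bone and 111, 84.3, 86.5 and 84.6 CPM in other cartilage. Ptprz1 and Sdc1, 2 of the 3 receptors with enough UMIs, were past 2-fold higher in bone than in other cartilage in each library, where 14.0% to 20.3% of all genes were.

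Among 4 proteases that cut membrane-bound RANKL or CSF1 loose, 2, 2, 2 and 3 were past 2-fold higher in bone than in other cartilage, where 14.0%, 15.1%, 14.0% and 20.3% of all genes were. Mmp14 was at 319, 280, 218 and 346 CPM in bone against 31.4, 30.4, 28.2 and 22.2 CPM, and Adam10 at 150, 148, 179 and 151 CPM against 26.2, 33.6, 33.2 and 34.5 CPM. Neither was past 2-fold between mutant and control bone at either age. Adam19, from 11, 14, 6 and 21 UMIs in bone, was past 2-fold higher in the mutant at both ages, and Adam17 at 12–16 months. Of all genes in bone, 18.1% and 16.7% were past 2-fold between mutant and control in either direction. Cxcl12-positive cells were a larger part of mutant bone, and the part of this makeup was not tested. TMM scaling was not applied to these values.

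Of 10 receptors that act upstream of Tnfsf11, 3, 6, 3 and 4 were past 2-fold higher in bone than in other cartilage and 1, 0, 2 and 1 lower, beside the shares of all genes given above. Pth1r, the parathyroid hormone receptor, was at 1253, 1051, 751 and 1131 CPM in endplate, at 135, 546, 171 and 399 CPM in other cartilage and at 516, 570, 427 and 480 CPM in bone. It was past 2-fold higher in other cartilage of the mutant at both ages, where 8.21% and 6.65% of all genes were past 2-fold in either direction. Hypertrophic markers were also higher in other cartilage of both mutants, and their part in the Pth1r values was not tested. Vdr, the vitamin D receptor, was at 182, 326, 242 and 214 CPM in bone and at most 33.0 CPM in cartilage, and Lifr, the receptor for leukemia inhibitory factor, was at 2577, 4096, 1953 and 2843 CPM in bone and at most 610 CPM in cartilage.

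In bone, 4 of the 7 upstream receptors with enough UMIs were past 2-fold higher in the mutant at each age, where 18.1% and 16.7% of all genes were past 2-fold in either direction. They were Il6st, the shared subunit of the interleukin-6 family receptors (97.6, 209, 84.3 and 191 CPM), Osmr, the oncostatin M receptor (104, 229, 45.2 and 133 CPM), Il1r1, the interleukin-1 receptor (103, 209, 65.5 and 289 CPM), and Tnfrsf1a, a TNF receptor (58.0, 163, 42.1 and 105 CPM). None was lower. The median log2 ratio of the 7 was 1.03 and 1.18, against 0.22 and 0.36 over all genes. Cxcl12-positive cells were a larger part of mutant bone, and the part of this makeup in the values was not tested. Within them the levels were 142, 251, 125 and 250 CPM for Il6st and 142, 288, 119 and 180 CPM for Osmr. Those of Il1r1 were 198, 266, 185 and 409 CPM and those of Tnfrsf1a 88.9, 177, 59.7 and 134 CPM. Il6st, Il1r1 and Tnfrsf1a at 3 months and Osmr at 12–16 months were under 2-fold there. TMM scaling, which moved every log2 ratio over all bone cells by −0.31 and −0.33, was not applied to these values. A shift of this size takes several of these calls under 2-fold, among them Il6st at both ages and Osmr and Il1r1 at 3 months. The count of 4 at each age thus depends on the scaling.

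Other secreted signals differed widely in level. The 12 that raise osteoclast formation summed to 6179, 798, 661 and 1421 CPM in endplate and 2701, 3259, 1821 and 5549 CPM in other cartilage. In bone their sum was 30090, 14815, 11951 and 23254 CPM. Of these 12, Il6, Il11, Lif, Tnf and Il1a had at most 11 UMIs in any class and library of cartilage and bone. Cxcl12, which helped to split the bone class, was at 3553, 9158, 4152 and 9022 CPM in bone. Spp1, which encodes osteopontin, was at 26410, 5510, 7615 and 14064 CPM in bone, highest in the 3-month control. Il1b was seen in bone of 1 library only, the 12–16-month control, with 56 UMIs, where hematopoietic markers summed to 103 CPM against 0 to 13.2 CPM in bone of the others. Of 9 signals that lower osteoclast formation, Slit3 was at 690, 1297, 658 and 539 CPM in bone and 14.2 to 27.1 CPM in other cartilage, and Il18 was at 13.1 to 27.4 CPM in other cartilage and 0 to 5.21 CPM in bone.

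Of the 9 osteoclast effector genes, Calcr was at 0 in all classes of cartilage and bone, and Acp5, Dcstamp, Ocstamp, Atp6v0d2 and Oscar had at most 6 UMIs in any class and library. Ctsk, which encodes the protease cathepsin K, was at 190, 112, 179 and 150 CPM in bone, and Nfatc1, a transcription factor that osteoclasts need, was at 145, 150, 141 and 146 CPM in other cartilage, 84.1 to 167 CPM in endplate and 15.3 to 28.1 CPM in bone. Cells with CD45 or CD11b, which osteoclast precursors carry, had been gated out before sequencing.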

How the data were processed

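Single tdTomato-positive cells of the mouse spine were profiled in 4 libraries, 1 per condition. The authors ran Cell Ranger (8.0.0 in the file headers) on the mm10 genome with a tdTomato sequence added, and deposited the UMI counts per gene and barcode of each library on its own. The values are raw counts without the ambient RNA correction (SoupX) and the clustering of the study, which were not applied here, so free RNA remains in them.

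The filter of the study on cells was applied (over 750 UMIs, over 500 genes, under 7% mitochondrial UMIs), and each cell went to the first class whose rule it met. Counts were summed per class and library and divided by all UMIs of the group. Levels have exact Poisson intervals, shares of cells Clopper-Pearson intervals, and ratios exact conditional binomial intervals. A group at 0 was set to a floor of 3 counts for a bound, per library and class. With 1 library per condition no test and no p-value was possible. The code of the rule for 2-fold calls was run on simulated Poisson counts with known changes. These counts had no clustering of UMIs in cells and no spread between libraries, so the run cannot judge calls that rest on few cells. The 4 genes and the pathway and marker lists were chosen with earlier results of these data known. Named are the 4 genes in every class, genes of the lists by counts past 2-fold or as defining members, and the 5 genes of most like pattern per gene. The split of bone cells and the cells with other markers were chosen after their counts had been seen. The list medians add 0.5 UMIs to each count.

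Doublets were kept in the values given. Scrublet in scanpy 1.11.5, at an expected rate of 6%, called 19 of 1757 cells (1.08%), and their removal was 1 of the alternatives. The others were all barcodes, more than 3000 UMIs per cell, another class order, thinned cells, TMM scaling (edgeR 4.0.16 in R 4.3.3), other totals, equal weight of cells and leaving out the top cell. Calculations used Python 3.11.15 with numpy 2.4.6, scipy 1.17.1 and pandas 2.3.3. Gene positions are from the GENCODE annotation of GRCm38 (mm10).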

Additional observations from a re-analysis of the deposited data

Results flagged for a closer look

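The mutant-to-control difference of Tnfrsf11b lay on opposite sides of 1 at the 2 ages, with counting intervals that excluded 1 at both, in 4 groups of cells. The CPM ratio was 1.51 at 3 months and 0.468 at 12–16 months over all passing cells, 1.54 and 0.259 in endplate, 1.26 and 0.239 in the hypertrophic endplate cells, and 1.47 and 0.826 in other cartilage. In other cartilage at 12–16 months the interval no longer excluded equal levels with TMM scaling (log2 ratio −0.19, −0.41 to 0.04) or without the top cells (−0.08, −0.33 to 0.18), and the direction turned with equal weight of cells (0.03) and with thinned cells (0.22). The groups share cells, since all passing cells hold the others. The hypertrophic endplate cells of the 12–16-month control had no Col10a1 UMI and were set by Prkg2 and Ihh alone. Each condition is 1 library, so the difference between the ages was not tested. Beside it, the endplate of the 12–16-month control rested on 12 cells, and the 3-month mutant library had 5 UMIs of Y-linked genes against 122 to 216 in the others.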

How the results depend on the processing

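Over 48 results there were 336 alternative values: 280 stayed within the counting interval of the value given, 44 moved outside it, and 12 turned the direction of a value whose interval excluded equal levels. A further 28 gave no value, among them the endplate ratios with other cartilage placed first and the 12–16-month endplate ratios of Tnfrsf11b, Tnfsf11 and Csf1 with classes set on thinned cells. Values here are log2 ratios of mutant to control CPM unless stated, with the value as reported in parentheses, and the cause of the changes was not tested.

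Tnfrsf11b in endplate at 3 months (0.63) was 1.91 with classes set on thinned cells, 1.27 with thinned cells, 1.02 with equal weight of cells and 0.99 without the top cells, and at 12–16 months (−1.95) it was −2.23 without the Sox9 condition, which was dropped after seeing the data. In other cartilage at 3 months (0.56) it was 0.74 with the other class order, 0.72 with classes set on thinned cells and 0.74 with equal weight, and at 12–16 months (−0.28) it was −1.02, −0.97 and 0.03 in the same order and 0.22 with thinned cells. Tnfsf11 in endplate at 3 months (−2.24) was 0.21 with classes set on thinned cells and 0.19 without the top cells, its ratio of 12–16 to 3 months in control endplate (−1.32) was 0.33 without the top cells, which was added after seeing the data, in other cartilage at 12–16 months (3.50) it was −0.19 with classes set on thinned cells, and in bone at 12–16 months (1.76) it was 0.45 with thinned cells. Csf1 in bone at 3 months (0.43) was −0.68 with the other class order, −0.01 with equal weight and −0.25 with thinned cells, and at 12–16 months (0.81) it was 0.32 with classes set on thinned cells, 0.48 with TMM scaling, 0.31 with equal weight and 0.18 with thinned cells. Il34 in bone at 3 months (2.09) was 4.39 with the other class order and 0.92 with thinned cells, and at 12–16 months (2.13) it was 3.17 without the top cells. The log2 ratio of Tnfsf11 to Tnfrsf11b UMIs over all cells of the 3-month control (−3.94) was −4.23 with equal weight.

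The split of the bone cells was chosen after seeing the data. In cells with at least 10 Cxcl12 UMIs the ratios at 3 and 12–16 months were −0.17 and 0.06 for Csf1 and 0.69 and 1.00 for Il34, and Tnfsf11 at 12–16 months was 0.66. In cells under 20 osteocalcin UMIs they were −0.01 and −0.09 for Csf1, and at 12–16 months 0.74 for Tnfsf11 and 1.13 for Il34. TMM scaling moved every bone ratio by −0.31 and −0.33 and every ratio over all cells by −0.19 and −0.06.

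No paired analysis was possible because each condition had 1 library. With 12 to 142 endplate and 17 to 63 bone cells per library, and under 60 Tnfsf11 UMIs in each class and library, small differences were not detectable at this depth. Genotype, the number of Cre alleles, the sex of the mice and the preparation of each library cannot be told apart.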

Other observations

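Barcodes that did not pass the cell filter numbered 205 and 58 in the 3-month control and mutant libraries and 28 and 124 in those of 12–16 months. In the 12–16-month mutant they held 42 Csf1 UMIs among 282003 UMIs, or 149 CPM (107–201), above the 72.1 CPM of the passing cells of that library. In the 12–16-month control they held 10 Tnfrsf11b UMIs, or 140 CPM (67.0–257), against 330 CPM in passing cells.

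Ptgs2, the inducible cyclooxygenase of prostaglandin synthesis, had no UMI in bone of any library, which allows up to 4.87, 18.8, 5.76 and 4.80 CPM. In other cartilage it was at 1.44, 10.1, 20.1 and 38.8 CPM, and in endplate at 0, 3.59, 0 and 10.7 CPM. In other cartilage both mutant libraries were above the control of their age, with 1 library per condition and no test. In endplate neither control had a UMI, and the counts were too few to set an order.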
